A study of Homo sapiens with 46 samples.

Results

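The RNA of ectoderm cells was compared between 2 fractions of the same cell type, the nucleoplasm, which is the nuclear content released by detergent and urea, and the cytoplasm. The comparison rests on 6 of the 46 libraries of the series, 3 from ectoderm nucleoplasm and 3 from ectoderm cytoplasm, chosen by cell type and compartment in the sample titles. The ectoderm was made from the cell line H1, which is established and pluripotent (human pluripotent stem cells, hPSC). Cells were collected after 5 days in medium with 15% KOSR, 2 µM A83-01, 2 µM PNU-74654 and 2 µM dorsomorphin, which are inhibitors of TGF-beta receptor, Wnt and BMP receptor signalling. Undifferentiated H1 cells in mTeSR1 medium, and endoderm made from H1 with WNT3A and Activin A, gave the same 2 fractions with 3 libraries each and are used below for comparison. All groups come from this 1 line, no group carries a genetic change, and the lysis, sucrose and resuspension buffers of the fractionation all held 25 µM α-amanitin, an inhibitor of RNA polymerase II. The series text speaks of actinomycin D, which no label of these libraries names. The labels do not say whether the 3 repeats of a group were separate cultures, so the p-values measure only the spread between these samples.

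Cells were opened with 0.05% NP-40, a mild detergent, and the lysate was spun over a sucrose cushion. The supernatant was the cytoplasm. The pelleted nuclei were washed in PBS, with no detergent wash named, and were then lysed with 1% NP-40 and 1 M urea. The supernatant of this step was the nucleoplasm and its pellet was the chromatin fraction. A portion of the first pellet gave a nucleus fraction. The last 2 fractions, with 3 ectoderm libraries each, entered the fit to share 1 estimate of spread.

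A messenger RNA leaves the nucleus through nuclear pores and is then translated either on free ribosomes in the cytosol or on ribosomes bound to the endoplasmic reticulum (ER). Messages for secreted and membrane proteins reach the ER through a hydrophobic stretch near the start of the protein, which the signal recognition particle (SRP) binds as it leaves the ribosome. The ER membrane is continuous with the outer nuclear membrane. RNAs encoded in the mitochondrial genome are made and kept inside mitochondria. Certain long noncoding RNAs (lncRNAs), such as MALAT1 and NEAT1, are known to stay in the nucleus.

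The ectoderm label was set against marker genes in the authors' TPM (transcript abundance corrected for transcript length and library size) of the cytoplasm. Of 37 neuroectoderm markers, 32 were in the table and 25 had a mean of at least 5 TPM, among them SOX2 at 207 ± 51.7 TPM (SD, n = 3), PAX6 at 112 ± 13.5 TPM, OTX2 at 99.4 ± 14 TPM and LHX2 at 79.8 ± 12.4 TPM. SOX1, FEZF2, EMX2, HES5 and POU3F2 were not in the table. For pluripotency genes 10 of 21 reached that level. LIN28A was at 558 ± 120 TPM and the defining gene POU5F1 at 6.35 ± 1.66 TPM, and NANOG was not in the table. Markers of non-neural ectoderm and neural crest reached it for 7 of 20 genes. Of these, KRT8 at 612 ± 74.4 TPM and KRT18 at 347 ± 45.4 TPM lay above the neuroectoderm values given here, and the next was DLX5 at 16.7 ± 1.94 TPM. Markers of endoderm reached 5 TPM for 1 of 16 genes (FOXA3) and those of mesoderm for 2 of 18 (BMP4 and SNAI1).

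The 6 libraries held 8473955 to 18474308 counts. Gene values are given in CPM, counts scaled to the same total of counts in Ensembl genes in every library. Transcripts outside any Ensembl gene took 0.277% to 8.67% of a library. Repeats of 1 fraction correlated at r = 0.977 to 0.987 across genes, and no 2 libraries were identical. The markers that should tell the fractions apart did so only in part. MALAT1, kept in the nucleus in most cells, was at 2220, 1820 and 2210 CPM in nucleoplasm and 2180, 1220 and 1700 CPM in cytoplasm, which overlap (log2 difference 0.27 ± 0.45 SE, adjusted p = 0.675). In the nucleus fraction MALAT1 was at 169 ± 136 CPM, below both. How far the cytoplasm holds nuclear RNA and the nucleoplasm holds ER and mitochondria was not tested.

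The hydrophobic stretch that SRP binds is encoded near the start of the coding region. The first 30 codons of 7 genes are shown, 6 of them in pairs of like genes with log2 differences of opposite sign, as DNA, from GENCODE release 29 on GRCh38. Capital T marks T in the second place of a codon. Those codons encode phenylalanine, leucine, isoleucine, methionine and valine, the strongly hydrophobic residues, so that capitals in successive codons mark a hydrophobic stretch. The first pair are chaperones of the HSP70 family, HSPA5 of the ER (chr9:125234853-125241330, minus strand) and HSPA8 of the cytosol (chr11:123057489-123063230, minus strand). The next pair are chaperones of the HSP90 family, HSP90B1 of the ER (chr12:103930107-103953645, plus strand) and HSP90AB1 of the cytosol (chr6:44246166-44253888, plus strand). FN1 encodes the secreted matrix protein fibronectin (chr2:215360440-215436172, minus strand) and stands alone. NUP210, a membrane protein of the nuclear pore (chr3:13316235-13420309, minus strand), stands beside SEC13, a soluble one (chr3:10293131-10321178, minus strand). The coordinates are those of the genes.
HSPA5: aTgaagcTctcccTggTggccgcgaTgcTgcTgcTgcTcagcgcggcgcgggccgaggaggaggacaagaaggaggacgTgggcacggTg
HSPA8: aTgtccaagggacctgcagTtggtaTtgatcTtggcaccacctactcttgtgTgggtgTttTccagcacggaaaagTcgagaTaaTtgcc
HSP90B1: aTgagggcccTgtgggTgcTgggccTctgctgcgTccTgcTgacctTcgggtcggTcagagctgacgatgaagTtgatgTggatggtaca
HSP90AB1: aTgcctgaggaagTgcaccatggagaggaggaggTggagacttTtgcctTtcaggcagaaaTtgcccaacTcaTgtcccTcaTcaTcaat
FN1: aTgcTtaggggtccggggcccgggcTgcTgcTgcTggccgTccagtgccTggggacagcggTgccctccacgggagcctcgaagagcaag
NUP210: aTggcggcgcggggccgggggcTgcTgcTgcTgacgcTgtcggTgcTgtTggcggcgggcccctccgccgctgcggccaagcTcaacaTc
SEC13: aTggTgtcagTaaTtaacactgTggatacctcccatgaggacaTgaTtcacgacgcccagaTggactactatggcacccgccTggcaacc

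In the best stretch of 9 codons, within the first 35, such codons numbered 7 in HSPA5 and NUP210 and 6 in HSP90B1 and FN1. The count was 4 in HSPA8 and 5 in SEC13. HSP90AB1 also reached 6, with its run near the end of the stretch shown, so the count alone does not sort the 7 genes.

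Across all genes, 15655 of 17713 passed the filter on low counts and were tested. Of these, 5959 (38.1%) differed between the fractions at an adjusted p under 0.05 (edgeR quasi-likelihood test, Benjamini-Hochberg), 2855 (18.2%) higher and 3104 (19.8%) lower in nucleoplasm. At least 2-fold, 1113 were higher and 542 lower. The median log2 difference of all genes was 0.005 and the median SE of a called gene was 0.15. The 2 groups of libraries did not overlap for 8779 genes (56.1%). All log2 differences are nucleoplasm minus cytoplasm, scaled by TMM (edgeR's default factors, which assume that most genes do not differ), so a fall is a fall relative to the typical gene. On log2(TPM + 1) without such scaling, the median of all genes was 0.199 and falls were fewer (750 genes), which is given below where it ends the call of a group.

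The mitochondrially encoded RNAs were higher in nucleoplasm in 14 of 15 genes, with a median log2 difference of 2.7. MT-CO1, a subunit of cytochrome c oxidase, was at 30400, 31200 and 35100 CPM in nucleoplasm and 5310, 3890 and 5360 CPM in cytoplasm. Every nucleoplasm library lay above every cytoplasm library, a 6.64-fold difference (log2 2.70 ± 0.23 SE, adjusted p = 1.23e-06). MT-RNR2, the large ribosomal RNA of mitochondria, was at 12600, 13600 and 15000 CPM against 2290, 1510 and 2410 CPM (log2 2.70 ± 0.19 SE, adjusted p = 3.36e-07). MT-ATP6, a subunit of ATP synthase, was at 2070, 2020 and 2560 CPM against 155, 173 and 316 CPM, a 10.3-fold difference (log2 3.33 ± 0.31 SE, adjusted p = 3.31e-06). MT-ND6, a subunit of respiratory complex I, was at 1550, 1690 and 1990 CPM against 253, 176 and 473 CPM (log2 2.50 ± 0.34 SE, adjusted p = 8.78e-05). The exception was MT-ATP8, whose reading frame overlaps that of MT-ATP6, at 10.6, 18.2 and 20.3 CPM against 1.83, 1.34 and 14 CPM (log2 1.43 ± 0.64 SE, adjusted p = 0.094). Cytoplasm library 3 reached into the range of the nucleoplasm, and without that library the log2 difference was 3.35 (adjusted p = 0.000279). MT-ATP8 was also called in the fit of the 6 libraries alone (adjusted p = 0.0488) and with the replicate block (1.68, adjusted p = 0.0415). As a share of all counts, mitochondrially encoded genes took 8.75% ± 0.944 of nucleoplasm, 1.29% ± 0.327 of cytoplasm, 2.37% ± 0.426 of chromatin and 9.5% ± 1.17 of nucleus (SD, n = 3 each). Nucleoplasm and cytoplasm shares did not overlap (exact two-sided permutation p = 0.1, the smallest that 3 against 3 allows).

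**Figure D1:**
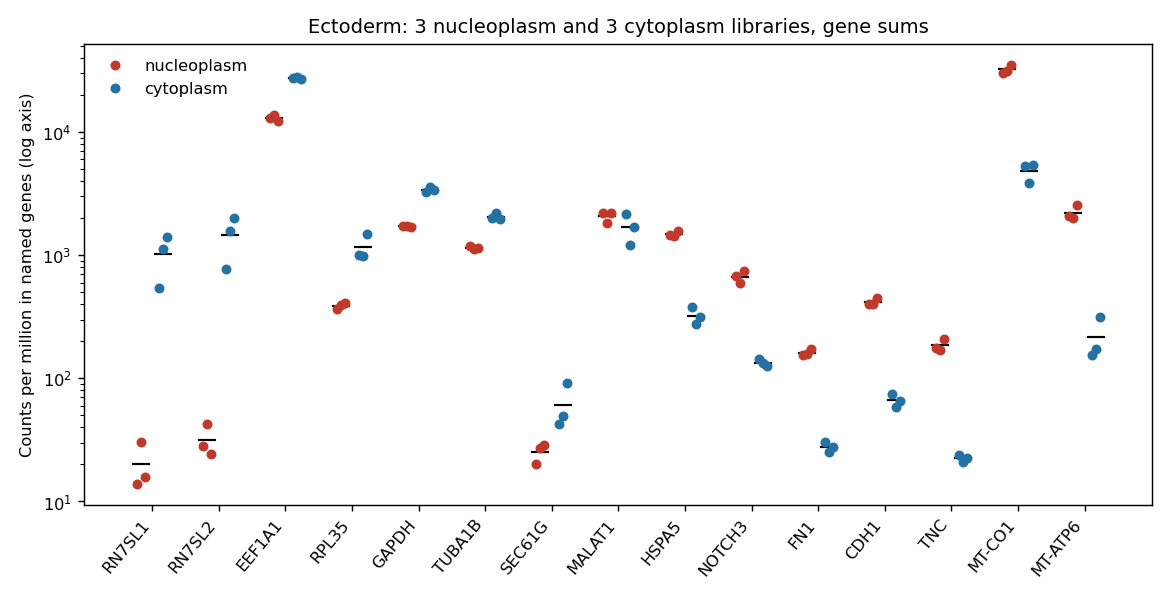
CPM of 15 genes in the 3 nucleoplasm (red) and 3 cytoplasm (blue) libraries of ectoderm, on a log axis, with points for libraries and bars for means. The 7SL genes at the left lie far lower in nucleoplasm, MALAT1 overlaps, and the mitochondrial and secretory genes at the right lie higher in nucleoplasm.

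Genes for the extracellular matrix and other secreted proteins were higher in nucleoplasm in 35 of 40 tested, lower in 0, with a median log2 difference of 1.71. FN1 was at 156, 157 and 173 CPM in nucleoplasm and 30.4, 25.3 and 27.8 CPM in cytoplasm, with no overlap and a 5.81-fold difference (log2 2.51 ± 0.14 SE, adjusted p = 1.34e-07). COL4A1, a chain of basement membrane collagen, was at 305, 251 and 306 CPM against 61.9, 42.5 and 51.5 CPM (log2 2.44 ± 0.15 SE, adjusted p = 1.84e-07). NID1, which links laminin to that collagen, rose by log2 2.42 and FBN1, a fibrillin of microfibrils, by 2.39. TNC, a matrix glycoprotein outside the list, was at 176, 170 and 210 CPM against 24, 20.8 and 22.7 CPM (log2 3.01 ± 0.16 SE, adjusted p = 1e-07). The 5 members not called were the small secreted proteins TIMP1 (-0.46), FRZB (-0.03), TIMP2 (0.10), SFRP2 (0.18) and SFRP1 (0.29), inhibitors of matrix proteases or of Wnt ligands.

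Among adhesion and guidance receptors 43 of 44 were higher in nucleoplasm and 0 lower, with a median of 1.54. CDH1, the epithelial cadherin, was at 403, 400 and 449 CPM in nucleoplasm and 74.7, 58 and 65.7 CPM in cytoplasm. The groups lay far apart (log2 2.63 ± 0.14 SE, adjusted p = 8.54e-08). CDH2, the neural cadherin, rose less, from 84.6, 61.9 and 66.5 CPM in cytoplasm to 229, 216 and 234 CPM in nucleoplasm (log2 1.65 ± 0.12 SE, adjusted p = 3.91e-07). PTPRF, a receptor phosphatase, rose by log2 2.20, EPHB3, an ephrin receptor, by 2.01 and FAT1, a giant cadherin, by 1.99. The member not called was EFNB2, an ephrin ligand (0.11, adjusted p = 0.42).

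Receptors and ligands of the Notch, Wnt, FGF, BMP and Hedgehog pathways, which pattern early neural tissue, were higher in 27 of 33 and lower in 0, with a median of 0.97. NOTCH3 was at 676, 596 and 741 CPM in nucleoplasm and 143, 133 and 126 CPM in cytoplasm, without overlap (log2 2.29 ± 0.17 SE, adjusted p = 3.58e-07). NOTCH2 rose by 1.94, the Notch ligand JAG1 by 1.93 and NOTCH1 by 1.89. Of the Frizzled receptors of Wnt ligands, FZD8 rose by 1.64 and FZD5 by 1.04, and the Wnt co-receptor LRP5 rose by 1.64. DLK1, a small Notch-like membrane protein, was not called (0.06, adjusted p = 0.82). Solute carriers, the transporters of the plasma membrane and of inner membranes, were higher in 112 of 185 and lower in 1 (SLC35D2, a nucleotide sugar transporter, -0.87), with a median of 0.69. SLC16A1, a lactate transporter, rose by 1.86 and SLC7A3, an amino acid transporter, by 1.81. The related carriers of the inner mitochondrial membrane, which enter mitochondria from the cytosol, went the other way, with 4 of 38 higher and 15 lower (median -0.23). SLC25A5, an ADP/ATP carrier, was at 122, 133 and 120 CPM in nucleoplasm against 242, 251 and 266 CPM in cytoplasm (log2 -1.05 ± 0.19 SE, adjusted p = 0.000787). On the TPM scale 4 of the 15 falls of these carriers were called.

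The ER's own genes were split. Of 34 genes for ER translocation and folding, 20 were higher in nucleoplasm and 9 lower, with a median of 0.59. HSPA5 was at 1460, 1420 and 1570 CPM in nucleoplasm and 377, 274 and 314 CPM in cytoplasm (log2 2.18 ± 0.14 SE, adjusted p = 1.8e-07). HSP90B1 was at 1490, 1530 and 1620 CPM against 413, 292 and 365 CPM (log2 2.09 ± 0.20 SE, adjusted p = 3.26e-06). Both ER chaperones lay far above their cytoplasm values in every nucleoplasm library. HYOU1, a nucleotide exchange factor of HSPA5, was 4.02-fold higher and STT3A, a catalytic subunit of the oligosaccharyltransferase, 3.94-fold. Their cytosolic relatives were lower, relative to the typical gene. HSPA8 was at 622, 664 and 591 CPM in nucleoplasm and 935, 938 and 839 CPM in cytoplasm (log2 -0.56 ± 0.16 SE, adjusted p = 0.0118), and HSP90AB1 fell by 0.69 (SE 0.15, adjusted p = 0.00299). On log2(TPM + 1) neither was called, HSPA8 at -0.22 (limma adjusted p = 0.41) and HSP90AB1 at -0.35 (limma adjusted p = 0.181). The 9 ER genes that were lower in nucleoplasm encode small subunits. SEC61G and SEC61B, the small subunits of the translocation channel, fell by 1.30 and 1.09, while its large subunit SEC61A1 rose by 0.99. SEC61G was at 20.1, 27.2 and 28.9 CPM in nucleoplasm and 42.5, 49 and 91.1 CPM in cytoplasm, without overlap. The others were SEC11A (-1.02) and SEC11C (-0.94) and SPCS1 (-0.53) of the signal peptidase, SSR4 (-0.62) and SSR3 (-0.41) of the translocon-associated complex, and OSTC (-0.50) and DAD1 (-0.45) of the oligosaccharyltransferase.

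A like split ran through cholesterol synthesis and its control, with 12 of 24 genes higher and 6 lower (median 0.33). The genes that rose include the membrane proteins SCAP and DHCR7. SCAP, the escort of the SREBP factors, rose by 1.45 and DHCR7, the last reductase, by 1.23. The soluble enzymes PMVK (-0.91), ACAT2 (-0.82), FDPS (-0.59) and IDI1 (-0.47) fell, as did the membrane-anchored FDFT1 (-0.57) and EBP (-0.31). FDPS was at 70, 75.3 and 77.3 CPM against 104, 113 and 110 CPM. For nuclear pore genes 5 of 31 (16.1%) were higher and 3 (9.68%) lower, beside 18.2% and 19.8% of all genes. Of the 5, 1 was the noncoding neighbour NUP50-DT that the name rule took in. Without nucleoplasm library 2, or without cytoplasm library 3, only 3 were higher, and 8 were in the fit of the 6 libraries alone. NUP210 was at 244, 233 and 264 CPM in nucleoplasm and 57.8, 54.7 and 53.9 CPM in cytoplasm (log2 2.12 ± 0.14 SE, adjusted p = 2.27e-07), and NDC1, another membrane pore protein, rose by 0.64. SEC13 was at 112, 113 and 112 CPM against 170, 193 and 194 CPM (log2 -0.76 ± 0.15 SE, adjusted p = 0.00128), and it was not called on log2(TPM + 0.1) (-0.46, limma adjusted p = 0.0505).

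Genes of cytosolic protein synthesis were lower in nucleoplasm. All 86 cytosolic ribosomal protein genes fell, with no overlap of the groups for any of them and a median log2 difference of -1.28. RPL35 was at 364, 396 and 410 CPM in nucleoplasm and 1010, 977 and 1490 CPM in cytoplasm (log2 -1.61 ± 0.24 SE, adjusted p = 0.000191). RPS29 fell by 1.71. For RPS29 cytoplasm library 3 stood apart, at 782 CPM beside 247 and 266 CPM, and without it the fall was 0.93 (adjusted p = 0.0528). The same library decided the falls of the pseudogenes RPL22P1 and EIF4BP3, which were -1.28 and -0.95 without it and not called, and both calls also ended without nucleoplasm library 3. On the TPM scale 81 of the 86 ribosomal protein genes were called lower. Their summed share of all counts was 5.62% ± 0.0962 in nucleoplasm, 13.2% ± 1.58 in cytoplasm, 3.9% ± 0.196 in chromatin and 11.9% ± 2.43 in nucleus (SD, n = 3 each). Nucleoplasm and cytoplasm shares did not overlap (exact two-sided permutation p = 0.1). Ribosomal protein genes, actins, tubulins and EEF1A1 have many near-identical pseudogenes, so the division of reads among copies is uncertain.

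Translation factors were lower in 43 of 58 and higher in 1 (median -0.66). EEF1A1, which brings transfer RNAs to the ribosome, was at 13000, 13700 and 12200 CPM in nucleoplasm and 27600, 27900 and 26800 CPM in cytoplasm, with no overlap (log2 -1.11 ± 0.19 SE, adjusted p = 0.000607). EEF2, the translocation factor, fell by 0.70 (SE 0.20, adjusted p = 0.0139), and without nucleoplasm library 2 the fall was 0.68 and no longer called, nor was it on log2(TPM + 1) (-0.36). Aminoacyl-tRNA synthetases, which charge transfer RNAs, were lower in 8 of 20 and higher in 1 (median -0.24). Proteasome subunits were lower in 30 of 37 and higher in 1 (median -0.7), PSMB6 at 66, 58.6 and 59.9 CPM against 115, 127 and 126 CPM. Cytosolic chaperones were lower in 17 of 20 (median -0.68), glycolytic enzymes in 11 of 17 (median -0.7) and actins and tubulins in 12 of 12 (median -0.72), each with 0 higher. GAPDH, a glycolytic enzyme, was at 1730, 1730 and 1710 CPM in nucleoplasm and 3250, 3600 and 3370 CPM in cytoplasm (log2 -1.02 ± 0.21 SE, adjusted p = 0.00215). TUBA1B, an alpha tubulin, was at 1180, 1130 and 1140 CPM against 1990, 2220 and 1960 CPM (log2 -0.87 ± 0.19 SE, adjusted p = 0.00275). These falls depend on the scaling. On log2(TPM + 1) the falls called were 16 translation factors, 0 synthetases, 11 proteasome subunits, 1 chaperone, 6 glycolytic enzymes and 0 actins or tubulins.

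Nuclear genes for mitochondrial proteins were lower in nucleoplasm, opposite to the RNAs made inside the organelle. Of the nuclear-encoded respiratory chain genes 70 of 87 were lower and 1 higher (median -0.96), and on the TPM scale 50 were called lower. NDUFS6, a subunit of complex I, was at 21.4, 22.5 and 23.5 CPM in nucleoplasm and 50.6, 53.2 and 88.4 CPM in cytoplasm (log2 -1.55 ± 0.29 SE, adjusted p = 0.000994). ATP5ME, a small subunit of ATP synthase, was at 12.2, 17.2 and 14 CPM against 26.7, 31.8 and 97.5 CPM, again with cytoplasm library 3 far above the others (log2 -1.90 ± 0.47 SE, adjusted p = 0.00595). Without that library the difference for ATP5ME was -1.05 (adjusted p = 0.0378). Mitochondrial ribosomal proteins were lower in 52 of 78 and higher in 3 (median -0.67), and 18 were called lower on the TPM scale. MRPL11 fell by 1.31 and MRPL51 by 1.30.

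**Figure D2:**
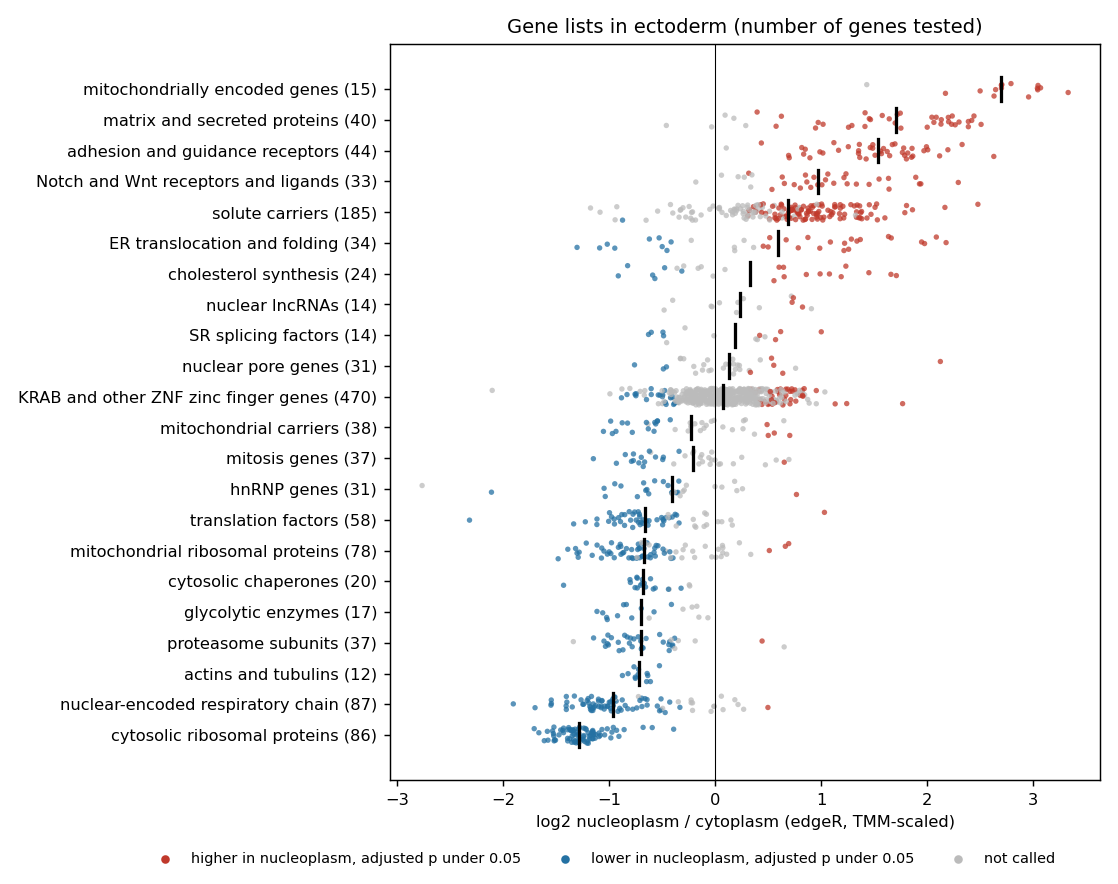
Each point is a gene and each row a gene list, with the number of genes tested in brackets, on the log2 nucleoplasm over cytoplasm scale of the 12-library edgeR fit. Black bars are medians, which run from 2.7 for mitochondrially encoded genes to -1.28 for cytosolic ribosomal proteins, and the ER list shows both directions.

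Small structural RNAs held the largest falls among named genes. RN7SL1 and RN7SL2 encode 7SL, the RNA of SRP. RN7SL1 was at 13.9, 30.5 and 15.7 CPM in nucleoplasm and 542, 1120 and 1400 CPM in cytoplasm, a 51-fold difference (log2 -5.75 ± 0.60 SE, adjusted p = 9.83e-06). RN7SL2 was at 28.3, 42.5 and 24.4 CPM against 768, 1580 and 2000 CPM, 45.6-fold lower in nucleoplasm (log2 -5.57 ± 0.47 SE, adjusted p = 1.31e-06). Chromatin and nucleus were low too, RN7SL1 at 53.3 ± 29.8 and 30.3 ± 20.6 CPM. The 2 genes are near-identical copies, so the division of reads between them is uncertain and the fall of either is best read as that of 7SL RNA.

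Other noncoding RNAs moved less. 7SK, an RNA that holds back the elongation factor P-TEFb in the nucleus, was at 4.3, 4.51 and 3.45 CPM in nucleoplasm and 13.4, 8.2 and 49.6 CPM in cytoplasm (log2 -2.60 ± 0.54 SE, adjusted p = 0.00205). Without cytoplasm library 3 the difference for 7SK was -1.42 (adjusted p = 0.00464). In all, 19 of 73 small structural RNAs (26%) were higher in nucleoplasm and 5 (6.85%) lower, beside 18.2% and 19.8% of all genes. On median-centred TPM, an alternative chosen after seeing the data, 12 were higher. SNORA59A, a small nucleolar RNA, was at 7.84, 19.6 and 9.85 CPM against 2.46, 1.64 and 0.381 CPM (log2 3.04 ± 0.72 SE, adjusted p = 0.00448), but on that TPM scale it was not called (0.70, limma adjusted p = 0.0544). Many small nucleolar RNAs lie inside introns of host genes, and how far these counts hold host RNA was not tested. Of 14 nuclear lncRNAs tested, 3 (21.4%) were higher and 0 lower (median 0.24), beside 18.2% and 19.8% of all genes. TUG1 was at 200, 246 and 221 CPM in nucleoplasm and 116, 144 and 108 CPM in cytoplasm (log2 0.82 ± 0.16 SE, adjusted p = 0.00131), MIAT rose by 0.74 and MEG3 by 0.73. NEAT1, the scaffold of paraspeckles, was at 33.8, 19 and 30.7 CPM against 40.9, 36.9 and 37.2 CPM and was not called (log2 -0.48, adjusted p = 0.131), though it was in the fit of the 6 libraries alone (adjusted p = 0.0235). KCNQ1OT1, an imprinted antisense RNA, had no overlap, at 16.8, 15.2 and 18.5 CPM against 9, 9.23 and 8.16 CPM, and was not called (log2 0.91, adjusted p = 0.108), though it was in that fit too (adjusted p = 0.000108), where 5 nuclear lncRNAs were higher. A list of lncRNAs known from the cytoplasm or as hosts of small nucleolar RNAs was lower in 10 of 21 and higher in 1 (median -0.49). SNHG6 was at 56.9, 59.1 and 60.7 CPM in nucleoplasm and 143, 144 and 198 CPM in cytoplasm (log2 -1.49 ± 0.19 SE, adjusted p = 4.67e-05).

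Genes of RNA processing and cell division showed mixed or smaller differences. The hnRNP genes, for proteins that coat nuclear RNA, were lower in 18 of 31 and higher in 1 (HNRNPDL, 0.77). The 18 include the pseudogene HNRNPA1P68. HNRNPA1 was at 1910, 2250 and 1980 CPM in nucleoplasm against 4160, 3860 and 4370 CPM in cytoplasm (log2 -1.05 ± 0.15 SE, adjusted p = 0.000135). The count of hnRNP falls was 11 without cytoplasm library 3 and 4 on log2(TPM + 1). SR splicing factors were split, 4 of 14 higher and 4 lower (28.6% each, beside 18.2% and 19.8% of all genes), with 7 higher in the fit of the 6 libraries alone. SRSF5 was at 685, 720 and 732 CPM against 371, 311 and 362 CPM (log2 1.00 ± 0.15 SE, adjusted p = 0.000194), while SRSF9 fell by 0.63. CLK1, a kinase of SR proteins, rose by 0.80. It was the only 1 of 6 CLK and DYRK kinases called (16.7%, beside 18.2% of all genes higher), and their median was -0.04. Of the zinc finger (ZNF) genes 42 of 470 (8.94%) were higher and 20 (4.26%) lower, below the 18.2% and 19.8% of all genes. The count of rises rested on the libraries fitted. It was 105 in the fit of the 6 nucleoplasm and cytoplasm libraries alone, where 7616 of all 15227 genes were called, 50.1% of them higher. The ZNF count was 27 without TMM factors. It fell to 24 and 27 without nucleoplasm libraries 2 and 3, and to 23 without cytoplasm library 3. Mitosis genes were lower in 15 of 37 and higher in 1. BIRC5, which encodes the chromosomal passenger survivin, was at 66.1, 54.1 and 51.2 CPM in nucleoplasm and 132, 113 and 127 CPM in cytoplasm (log2 -1.15 ± 0.14 SE, adjusted p = 4.01e-05). On log2(TPM + 1) 4 of those falls were called.

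Of 31 neuroectoderm markers tested, 3 (9.68%) were higher in nucleoplasm and 6 (19.4%) lower, beside 18.2% and 19.8% of all genes. The cell surface genes NCAM1 and CDH2 rose by 1.78 and 1.65, and the transcription factor gene SOX2 rose by 0.48. PAX6, a master regulator of forebrain and eye, was at 142, 157 and 144 CPM in nucleoplasm and 209, 204 and 216 CPM in cytoplasm (log2 -0.54 ± 0.11 SE, adjusted p = 0.00175), and LHX2 and OTX2 fell by 0.46 and 0.34. On log2(TPM + 1) 0 of the 6 falls were called. Of 12 pluripotency genes tested 1 was higher and 2 lower. POU5F1 was at 1.84, 1.95 and 2.17 CPM against 5.2, 6.38 and 7.67 CPM (log2 -1.72 ± 0.23 SE, adjusted p = 8.33e-05), and LIN28A fell by 0.73, which was not called on log2(TPM + 1) (-0.37). Of 3 endoderm markers tested 1 was higher, the receptor tyrosine kinase KIT (2.13), and 1 lower, FOXA3 (-0.64, and -0.28 and not called on log2(TPM + 1)). Of 6 mesoderm markers 2 were higher, the receptor tyrosine kinases KDR (2.52) and PDGFRA (1.45), and 0 lower. Of 13 markers of non-neural ectoderm and neural crest 0 were higher and 2 lower, and 0 were lower on log2(TPM + 1).

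The direction of a coding gene was related to the length of its coding region. Of 12903 coding genes tested, 12829 (99.4%) had a coding sequence in GENCODE. In the shortest quintile, 75 to 771 bases, 5.2% were higher in nucleoplasm and 49.9% lower. These shares moved stepwise to 31.6% higher and 2.49% lower in the longest quintile, of at least 2568 bases. The rank correlation (Spearman) of coding length with the log2 difference was 0.47 over the 12829 genes, which share the 6 libraries and are not independent replicates. GC content of the transcript had a rank correlation of -0.07, and the count of codons with T in the second place in the best 9 of the first 35 one of 0.19. For the best 20 codons of the whole coding sequence the same count had one of 0.38.

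Genes with and without a hydrophobic start differed in these shares in each quintile given here. Where the best 9 of the first 35 codons held 0 to 4 codons with T in the second place, 12.8% of 7744 genes were higher in nucleoplasm and 26.1% lower. With 8 or 9 such codons, 56.6% of 348 genes were higher and 4.02% lower. Within the shortest quintile of coding length, 10% of genes with at least 7 such codons were higher and 23% lower, against 4.7% and 52.7% of the rest. In the middle quintile, 60.8% of genes with at least 7 were higher and 0.901% lower, against 15.7% and 22.3%. In the longest quintile, 81.5% of such genes were higher and 0% lower, against 27.1% and 2.71%. At least 7 such codons were found in 8.45% of all coding genes, in 35% of matrix and secreted genes, in 31.8% of adhesion and guidance genes, in 35.3% of ER genes and in 0% of cytosolic ribosomal protein genes. The lists also differed in median coding length, which was 1431 bases over all coding genes. It was 4479 bases for matrix and secreted genes and 3180 for adhesion and guidance genes. Of the lists that fell, it was 448.5 bases for cytosolic ribosomal proteins, 397.5 for the nuclear-encoded respiratory chain and 585 for mitochondrial ribosomal proteins. For cytosolic chaperones it was 1639.5 bases. How far length accounts for the list differences was not tested. These features come from 1 transcript per gene, chosen by its APPRIS rank in GENCODE, which need not be the isoform these cells express.

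**Figure D3:**
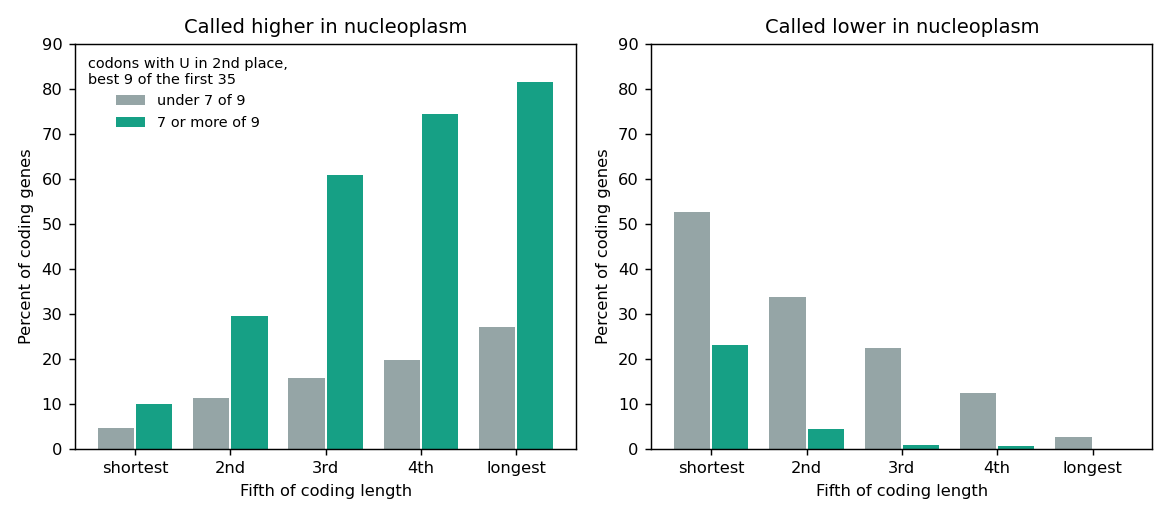
Percent of coding genes called higher (left) and lower (right) in nucleoplasm, by quintile of coding length, for genes with fewer than 7 (grey) and with 7 or more (green) codons with U (T in the DNA) in the second place in the best 9 of the first 35. The green bars rise from 10% to 81.5% at the left and the grey bars fall from 52.7% to 2.71% at the right.

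The other 2 ectoderm fractions place these differences. For FN1 the mean was 162 CPM in nucleoplasm, 27.8 CPM in cytoplasm, 92.7 ± 15 CPM in chromatin and 172 ± 10.7 CPM in nucleus. HSPA5 was at 654 ± 78.4 CPM in chromatin and 1620 ± 233 CPM in nucleus, and MT-CO1 at 8930 ± 1750 CPM and 35700 ± 3650 CPM. For these 3 genes the nucleus mean lay near that of nucleoplasm and the chromatin mean lay between nucleoplasm and cytoplasm. The nucleus did not resemble nucleoplasm for every group. EEF1A1 was at 25900 ± 3560 CPM in nucleus, beside 27400 CPM in cytoplasm, and SRSF5 was at 195 ± 59.3 CPM in nucleus, below both nucleoplasm and cytoplasm. The list of nuclear lncRNAs summed to 0.439% to 0.451% of gene counts in nucleoplasm, 0.274% to 0.371% in cytoplasm, 0.368% to 0.465% in chromatin and 0.0533% to 0.124% in nucleus. The libraries labelled nucleus thus held the least nuclear lncRNA of the 4 fractions, against what the label says. They enter the estimate of spread, the filter on low counts and the scaling, and a fit on the 6 nucleoplasm and cytoplasm libraries alone called 7616 of 15227 genes.

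**Figure D4:**
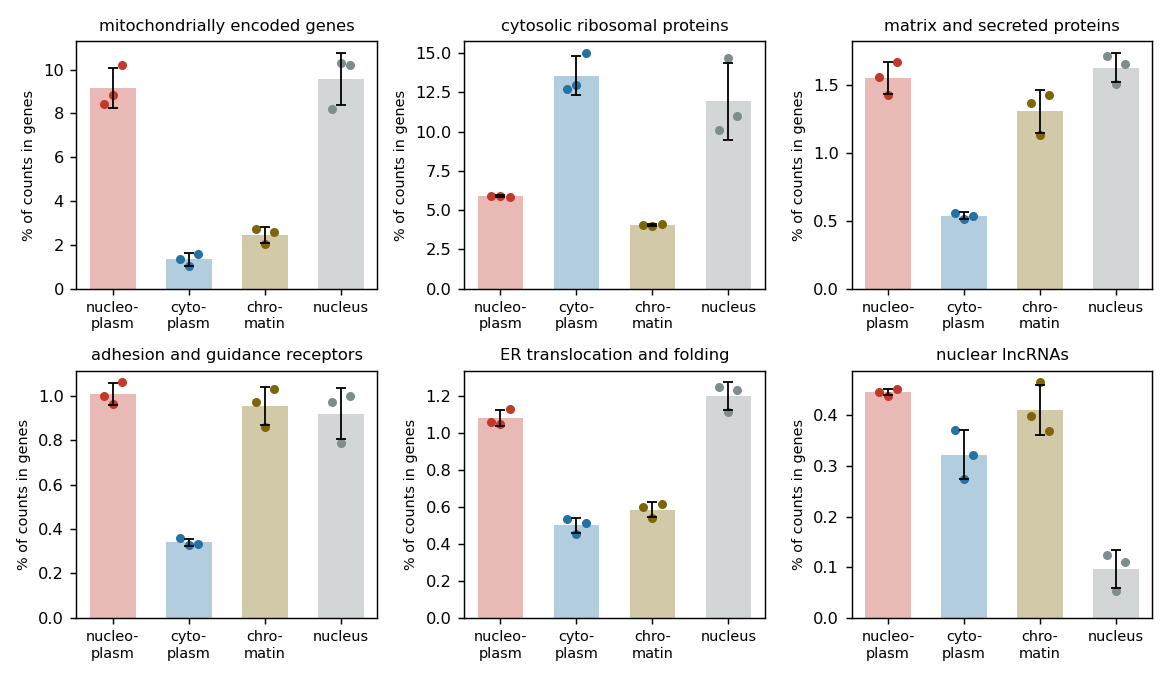
Share of gene counts taken by 6 gene lists in the 4 ectoderm fractions, with bars for means, error bars for SD and points for the 3 libraries. The mitochondrial, matrix, adhesion and ER lists are higher in nucleoplasm than in cytoplasm, ribosomal proteins are lower, and nuclear lncRNAs are lowest in the libraries labelled nucleus.

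At the level of assembled transcripts, 41708 were tested and 4464 (10.7%) differed, 1977 (4.74%) higher and 2487 (5.96%) lower in nucleoplasm. Isoforms that match an Ensembl transcript were higher in 1233 and lower in 2309 of 20518 (median -0.19). New isoforms, assembled by the authors and matching none, were higher in 738 and lower in 177 of 20817 (median 0.28). As a share of all counts new isoforms took 19.2% ± 0.177 in nucleoplasm, 14.6% ± 1.23 in cytoplasm, 29.8% ± 0.591 in chromatin and 11.8% ± 1.8 in nucleus (SD, n = 3 each). Nucleoplasm and cytoplasm did not overlap (exact two-sided permutation p = 0.1). Isoforms that match Ensembl took 76.2% ± 1.7 and 82.3% ± 5.99 of nucleoplasm and cytoplasm (exact two-sided permutation p = 0.3). Transcripts of no Ensembl gene took 6.22%, 3.16% and 4.31% of the nucleoplasm libraries and 0.277%, 8.67% and 0.547% of the cytoplasm libraries, so cytoplasm library 2 stood apart.

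In 119 genes at least 1 isoform was called higher and another lower in nucleoplasm, counting only isoforms with a mean of at least 10 CPM in the higher group. Over all transcripts, 4464 of 41708 (10.7%) were called. Genes with at least 2 isoforms at that level were not counted, so whether 119 is many or few is not known. HNRNPA2B1, a nuclear RNA-binding protein, had 5 called isoforms, 1 of which lost its call in 5 of 10 alternatives. One that matches ENST00000463181.5 was at 86.8, 85.9 and 77.8 CPM in nucleoplasm and 0 in every cytoplasm library, at least 465-fold higher against a floor of 3 counts per library. Another, which matches ENST00000490912.6, was at 0 in every nucleoplasm library and at 35.8, 18.9 and 23.1 CPM in cytoplasm, at least 103-fold lower. The sum over the gene hid this (log2 -0.41 ± 0.14 SE, adjusted p = 0.0298). LAMA5, a laminin chain of basement membranes, had 5 new isoforms higher, the first at 125, 127 and 147 CPM against 34.8, 42.8 and 39 CPM. A sixth isoform of LAMA5 was at 0 in every nucleoplasm library and at 20.5, 3.27 and 8.99 CPM in cytoplasm, at least 43.4-fold lower. RFXANK, a regulator of MHC class II genes, did not differ in sum (log2 0.05, adjusted p = 0.771), with an isoform at 8.58, 11.1 and 13 CPM against 4, 2.39 and 3.3 CPM and another at 8.43, 3.42 and 4.9 CPM against 18.5, 14.3 and 13 CPM. The call of the second isoform (log2 -1.51, adjusted p = 0.0386) ended in 8 of 10 alternatives, among them 5 of the 6 that leave out a library and the replicate block, with adjusted p up to 0.135. FUBP1, a regulator of MYC, had isoforms at log2 1.57 and -1.49. RPL17, a ribosomal protein, had 1 new isoform that rose by 1.42 and 3 others that fell by 1.07 to 1.61. RSEM, named in the processing notes, shares reads among isoforms by estimate, so single isoforms carry more uncertainty than gene sums and a 0 can be an estimate.

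The same difference between nucleoplasm and cytoplasm was compared with that in hPSC and in endoderm, in a fit of 18 libraries and 11281 genes. Each cell type has its own transcript assembly, so assembly and cell type cannot be told apart. Both comparisons use the ectoderm libraries. In this fit 27.9% of genes were higher and 24.5% lower in nucleoplasm in ectoderm, 33.6% and 32.7% in hPSC and 37.4% and 38.8% in endoderm. Against hPSC, 3364 genes (29.8%) had a different log2 difference in ectoderm, 1263 (11.2%) more positive and 2101 (18.6%) more negative. Against endoderm, 5331 (47.3%) did, 2436 (21.6%) more positive and 2895 (25.7%) more negative.

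The groups that were high in ectoderm nucleoplasm were less so than in the other cell types. Mitochondrially encoded genes had a median log2 difference of 2.81 in ectoderm, 5.04 in hPSC and 5.79 in endoderm in this fit, and all 15 had a more negative value in ectoderm than in each of the others. MT-CO1 was at 33300, 33900 and 38200 CPM in ectoderm nucleoplasm and at 31400, 32200 and 35400 CPM in hPSC nucleoplasm, which overlap. In cytoplasm it was at 5690, 4210 and 5720 CPM in ectoderm, 2030, 1260 and 1670 CPM in hPSC and 1040, 1260 and 1160 CPM in endoderm, so that the ectoderm cytoplasm stood above both. Matrix and secreted genes had medians of 1.81, 2.87 and 4.96 in ectoderm, hPSC and endoderm. Of the 40, 36 were more negative than in hPSC and 40 than in endoderm. ER genes had medians of 0.7, 2.03 and 2.67, with 30 and 32 of 34 more negative, and adhesion receptors 1.67, 2.6 and 3.74, with 29 and 38 of 38.

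HSPA5, too, was higher in ectoderm cytoplasm. It was at 403, 296 and 336 CPM in ectoderm cytoplasm and 86.3, 93.5 and 103 CPM in hPSC cytoplasm, with 1600, 1550 and 1710 CPM and 949, 939 and 942 CPM in the nucleoplasm of the same cells. The log2 difference was 2.28 in ectoderm and 3.44 in hPSC, apart by -1.16 ± 0.15 (SE, adjusted p = 9.8e-06). MALAT1 was at 2340, 1320 and 1820 CPM in ectoderm cytoplasm against 246, 287 and 233 CPM in hPSC cytoplasm and 120, 181 and 97.6 CPM in endoderm cytoplasm. Its log2 difference was 0.37 in ectoderm, 1.95 in hPSC and 3.64 in endoderm, and the ectoderm value was lower by 1.58 ± 0.32 (SE, adjusted p = 0.000868) and by 3.27 ± 0.33 (SE, adjusted p = 4.1e-08). Of 11 nuclear lncRNAs, 6 were more negative than in hPSC and 8 than in endoderm. Relative to nucleoplasm, the ectoderm cytoplasm thus held more mitochondrially encoded RNA than the cytoplasm of the other cell types. The same was true of most listed ER genes and of 6 and 8 of the 11 listed nuclear lncRNAs. Other lncRNAs, grouped by name, did not follow this against hPSC, and against endoderm their medians moved far less. Of those named as antisense, 21 were more positive and 2 more negative than in hPSC, and 12 and 27 than in endoderm. Their median differences were 0.37 and -0.19. Of the LINC-named lncRNAs, 9 were more positive and 1 more negative than in hPSC, and 6 and 12 than in endoderm. Their median differences were 0.29 and -0.08, beside -0.76 and -1.32 for the listed nuclear lncRNAs. Most antisense and LINC-named genes were not called in either comparison. In neither group did the share more negative than in endoderm reach the 25.7% of all genes. Whether the fractions were separated less cleanly in ectoderm was not tested.

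**Figure D5:**
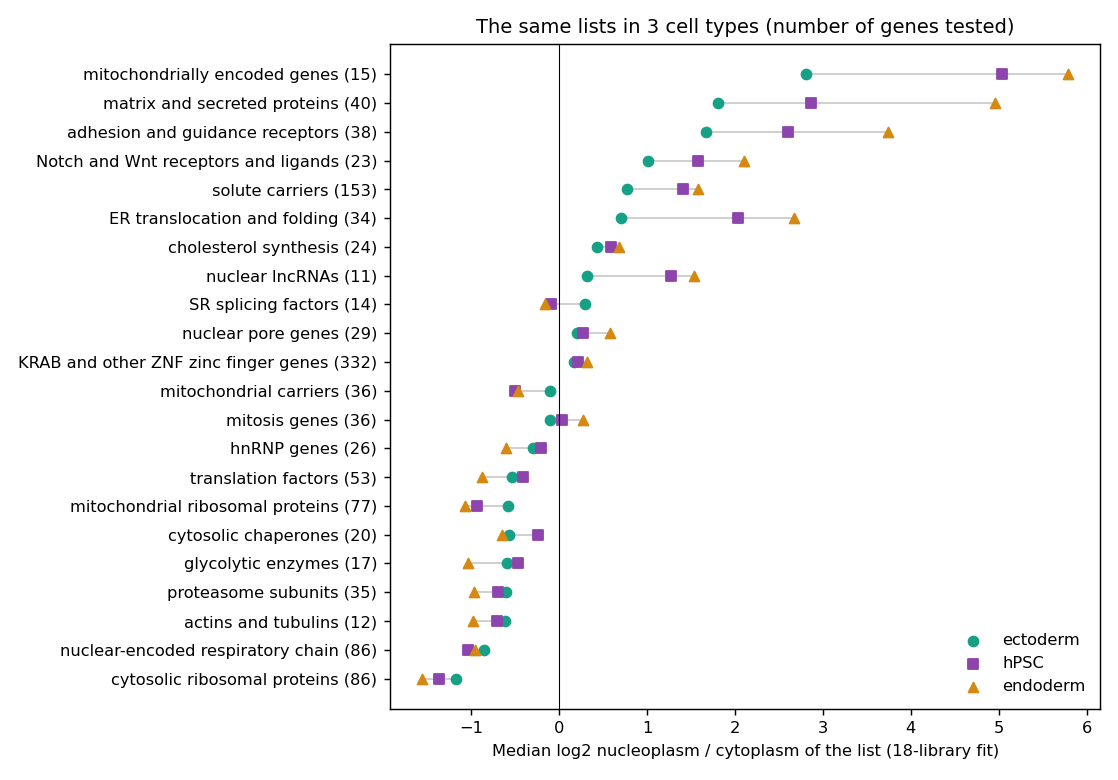
Median log2 nucleoplasm over cytoplasm of each gene list in ectoderm (circles), hPSC (squares) and endoderm (triangles), from the 18-library fit, with the number of genes tested in brackets. The ectoderm median is the smallest of the 3 for the mitochondrially encoded, matrix, adhesion, Notch and Wnt, solute carrier, ER and nuclear lncRNA lists. It is also the smallest for the cholesterol, nuclear pore, ZNF and mitosis lists, and it is the largest for mitochondrial carriers.

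Of the groups that fell in ectoderm nucleoplasm, cytosolic ribosomal proteins had medians of -1.18, -1.37 and -1.56 in ectoderm, hPSC and endoderm. Of the 86, 2 were more positive and 1 more negative than in hPSC, and 21 and 1 than in endoderm. Against endoderm, 19 of 35 proteasome subunits, 28 of 53 translation factors and 34 of 77 mitochondrial ribosomal proteins were more positive in ectoderm, and against hPSC 12 of 20 cytosolic chaperones were more negative. EEF1A1 fell by 1.01 in ectoderm and 0.80 in hPSC, a difference that was not called (-0.21 ± 0.16 SE, adjusted p = 0.332), and by 1.61 in endoderm (difference 0.60 ± 0.16 SE, adjusted p = 0.00367). RN7SL1 went its own way. In hPSC it was at 479, 1560 and 1030 CPM in nucleoplasm and 907, 1100 and 551 CPM in cytoplasm, which overlap (log2 0.37, adjusted p = 0.422), so that ectoderm differed by -6.02 ± 0.62 (SE, adjusted p = 4.71e-07). In endoderm it was at 2.97, 11 and 6.86 CPM against 484, 398 and 301 CPM (log2 -4.99), and the difference from ectoderm was not called (-0.66 ± 0.64 SE, adjusted p = 0.417). VWF, a secreted clotting factor, was higher in ectoderm nucleoplasm, at 14.5, 15.4 and 19.1 CPM against 2.18, 3.23 and 3.02 CPM, and in hPSC it was at 1.89, 1.11 and 1.01 CPM against 1.62, 1.52 and 1.19 CPM (difference 2.56 ± 0.36 SE, adjusted p = 2.06e-05). In endoderm VWF was at 64.2, 58.8 and 60.2 CPM against 1.77, 1.94 and 2.42 CPM, so that the ectoderm difference was lower by 3.16 (SE 0.27, adjusted p = 4.31e-09). Without TMM factors the median difference from endoderm over all genes moved from 0.042 to 0.826, and 8 nuclear lncRNAs more negative than in endoderm became 3.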

How the data were processed

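Short-read RNA-seq of NEBNext Ultra libraries was run on an Illumina NovaSeq, per the labels' protocols. The authors deposited expected counts (estimated counts, here whole numbers) and TPM per assembled transcript. STAR, RSEM and hg38 are named in the submitters' processing notes, without versions, and filters are not given in the sources used here. Rows were summed per Ensembl gene, and rows of no gene (0.277% to 8.67% of a library) stayed out of library sizes. The main test was edgeR 4.0.16 (quasi-likelihood, TMM, filterByExpr with a minimum count of 10) in R 4.3.3 on all 12 ectoderm libraries, with contrast nucleoplasm minus cytoplasm, Benjamini-Hochberg adjustment and calls at 0.05. The SE is the log2 difference over the square root of F. The scripts were tested on simulated data, each with 100 changes of log2 1.5 and 100 of log2 0.75. For gene sums 98 and 43 of these were called in the right direction. For the differences from hPSC and endoderm the counts were 97 and 55, and 99 and 57. For transcripts they were only 13 and 0, so the transcript test missed most of these changes. Of unchanged features, 4 gene sums, 0 transcripts and 9 genes in each of the differences from hPSC and endoderm were called. The simulations changed few features, up and down alike, while 38.1% of genes were called in these data, so these counts need not carry over. DESeq2 1.42.0 and limma 3.58.1 gave alternatives, limma on log2(TPM + 1) and log2(TPM + 0.1). Nucleoplasm and cytoplasm libraries of the same repeat number showed no shared deviation (correlations of deviations -0.01, -0.06 and 0.04). This does not show whether they came from 1 culture. Coding sequences and coordinates came from GENCODE 29 on GRCh38. Codon counts replaced a planned protein measure, a choice made after the files were seen. 1 further ectoderm column matched no sample and was not used. Members, gene lists and the naming rule were chosen with earlier results of these data known. The rule named called genes with at least 10 CPM in the higher group: the 10 largest rises and falls without overlap, the 6 most abundant in each direction, up to 4 members per list, up to 5 per direction for each difference between cell types, and 5 genes with opposite isoforms. Any tested nuclear lncRNA or marker could be named. Other list members in the text, such as the ER genes that fell, the receptors FZD8, FZD5 and LRP5 and the members not called, were picked after their values were seen. Folds against 0 use a floor of 3 counts per library and cover counting error only. Some items of these lists are not reported here.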

Additional observations from a re-analysis of the deposited data

Results flagged for a closer look

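Each value here is a difference between cell types in the log2 nucleoplasm over cytoplasm. The genes were selected from those named above or by the naming rule. Each difference given passed at an adjusted p under 0.05 (edgeR quasi-likelihood test over 11281 genes). Of all genes, 29.8% passed against hPSC and 47.3% against endoderm, so passing alone does not set these genes apart. Against hPSC, ectoderm differed by -1.61 for MT-CO1, -5.74 for MT-ATP8, -6.02 for RN7SL1, -0.79 for COL4A1, -1.36 for FN1, -1.16 for HSPA5, -1.07 for CDH1, -1.58 for MALAT1 and -0.65 for NOTCH3. MTCO1P12, a nuclear copy of part of MT-CO1 whose reads cannot be told apart from those of the mitochondrial gene with certainty, differed by -4.40. The positive differences were 2.56 for VWF, 4.54 for PVRIG2P and 2.48 for TMEM102. PVRIG2P, a pseudogene, had 0, 11 and 3.9 CPM in ectoderm nucleoplasm and 0, 0 and 0.233 CPM in ectoderm cytoplasm, and TMEM102, a membrane protein, had 2.36, 4.91 and 2.85 CPM against 2.56, 1.91 and 2.04 CPM, so both rest on few counts. The call of PVRIG2P ended without ectoderm nucleoplasm library 2 (3.43), either of ectoderm cytoplasm libraries 1 and 2 (4.07 and 4.01), hPSC cytoplasm library 1 (4.02) or hPSC nucleoplasm library 2 (4.21), and rose to 7.75 without ectoderm cytoplasm library 3. The call of TMEM102 ended in 8 of the 12 fits without 1 library (1.90 to 2.57), and without hPSC nucleoplasm library 3, the only one of that group with counts, the difference was 9.10. For MT-ATP8 the difference was -3.82 without ectoderm cytoplasm library 3.

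Against endoderm, ectoderm differed by -2.98 for MT-CO1, -5.79 for MT-ATP8, -5.49 for MTCO1P12, -4.06 for COL4A1, -3.73 for FN1, -3.52 for HSPA5, -2.71 for CDH1, -3.27 for MALAT1 and -2.20 for NOTCH3. The positive differences were 0.60 for EEF1A1, 3.79 for the histone gene H4C8 and 3.75 for MEF2B, a transcription factor. H4C8 was at 0.145, 0.445 and 0.161 CPM in endoderm nucleoplasm and 3.31, 5.03 and 3.47 CPM in endoderm cytoplasm, while its ectoderm libraries lay between 2.33 and 5.83 CPM in both fractions. MEF2B was at 1.33 to 2.95 CPM in ectoderm nucleoplasm and 0.988 to 1.98 CPM in ectoderm cytoplasm, and its call ended without ectoderm nucleoplasm library 1 (3.55), endoderm nucleoplasm library 1 or 3 (3.14 and 3.21) or endoderm cytoplasm library 3 (3.22). Without endoderm nucleoplasm library 2 the difference was 9.17. For MT-ATP8 the difference was -3.87 without ectoderm cytoplasm library 3. The other genes that the naming rule picked, 4 of 10 against hPSC and 6 of 10 against endoderm, had a group with 3 counts or fewer in every library and are given no value.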

How the results depend on the processing

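The count of 5959 called genes became 1655 (1113 higher, 542 lower) with a 2-fold minimum, 3827 (750 lower) with limma on log2(TPM + 1) and 3266 (690 lower) on log2(TPM + 0.1). On these TPM scales 80.4% and 78.9% of called genes were higher, against 47.9%, and the median of all genes was 0.199 and 0.279. With each library's median subtracted, an alternative chosen after seeing the data, 5912 genes were called and 36.7% of them were higher. The cause was not tested. Leaving out 1 library at a time gave 4685 to 5133 genes. For transcripts DESeq2 called 8451 (4337 higher, 4114 lower) and leaving out 1 library gave 2345 to 2926 (1139 to 1311 higher, 1187 to 1620 lower). Without TMM factors 8609 genes differed from endoderm (7198 more positive, 1411 more negative, 83.6% against 45.7% positive), and 50.8% of those that differed from hPSC were more positive, against 37.5%. Values that changed sign were ESRG (-0.09) and KCNQ1OT1 (-0.16) on median-centred TPM, SNORA18 (-0.16) on the combined assembly, RN7SL1 between ectoderm and endoderm (0.14) without TMM, and the share of transcripts of no gene (-0.0437 percentage points without cytoplasm library 1, up to 4.15 without cytoplasm library 2). With the repeat number as a replicate block 5615 genes, 3444 transcripts, and 2973 and 5072 differences from hPSC and endoderm were called. The labels do not say whether a shared repeat number marks a shared culture, so the block is an alternative only. Of the remaining alternatives for genes, isoforms and lists, 4159 stayed the same, 158 lost and 6 gained the call, and 74 list counts moved by over 1.5 times. For a gene or isoform, the same means that its sign and its side of the threshold held, whether called or not. For a list it means a count within 1.5 times. At these depths a value of 0 allows 0.163 to 0.366 CPM.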
